A study of Mus musculus with 2 samples.

Results

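Noncycling C1q-high macrophages were 342 of the 5022 immune cells profiled from B16-OVA tumors, 206 of 2392 cells in the library labelled WT and 136 of 2630 in the library labelled KO. The cells were selected on their own transcript counts (UMIs, unique molecular identifiers, each standing for 1 RNA molecule). A member had a sum of 10 or more UMIs over the C1q chain genes (*C1qa*, *C1qb*, *C1qc*), at least 1 of *Csf1r*, at most 2 of *Cd3d*, *Cd3e* and *Cd3g* together, and fewer than 3 each of *Cd209a*, of *Siglech* and of the cycle genes *Mki67*, *Top2a* and *Birc5* summed. The levels of these 12 genes are therefore a description of the choice and not a result.

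The B16-OVA line is a melanoma of C57BL/6 mice made to express ovalbumin as a model antigen. Tumors grew in *Maoa* WT mice and in *Maoa* KO mice. The KO mice carry a hypomorphic *Maoa* mutation made on a 129S background and backcrossed to C57BL/6J for more than 9 generations. The methods list C57BL/6J mice but do not give the strain of the *Maoa* WT mice. Mice were 8 to 12 weeks old. The methods give female mice as the default. At day 14, live CD45.2+ cells of 10 combined tumors were sorted for each genotype, and 10000 cells were loaded for a single Chromium 3′ V2 library. With 1 library of each genotype there is no replicate, so no test of a difference between them was made, the genotype and the library cannot be told apart, and the 95% intervals below (exact Poisson for levels, exact binomial for shares) cover counting error only.

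Tumor macrophages come in large part from blood monocytes, which lose *Ly6c2* and gain *Csf1r*-dependent and phagocytic genes as they mature in the tissue. C1q, built of A, B and C chains, starts the classical complement pathway and tags dying cells for uptake, and macrophages are a main source of it. *Mrc1* encodes the mannose receptor CD206, *Ccl8* a chemokine, and *Gas6* a bridge between dying cells and the TAM receptor kinases. These 3 genes are often found together in tissue macrophages of a mature, noninflammatory kind.

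The gates removed cells in steps. Of the cells with 10 or more C1q UMIs, 345 in the library labelled WT and 239 in that labelled KO, the *Csf1r* limit kept 306 and 217 and the *Cd3* limit 239 and 189. The *Cd209a* limit left 238 and 186, the *Siglech* limit took out no cell, and the cycle limit left 206 and 136. No doublet caller was run, and cells holding a macrophage together with a T cell were removed only as far as the *Cd3* limit does so. Among cells that passed every other gate, most had 0 to 2 C1q UMIs, the bin of 5 to 9 UMIs held 23 and 16 cells, and the members spread over the bins above it, from 37 and 21 cells with 10 to 19 UMIs to 15 and 16 cells with 320 or more. The C1q sum of a member had a median of 69 UMIs (quartiles 26.25 and 158.75, highest 529) in the library labelled WT and of 87 (29.75 and 206.5, highest 552) in that labelled KO.

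**Figure D1:**
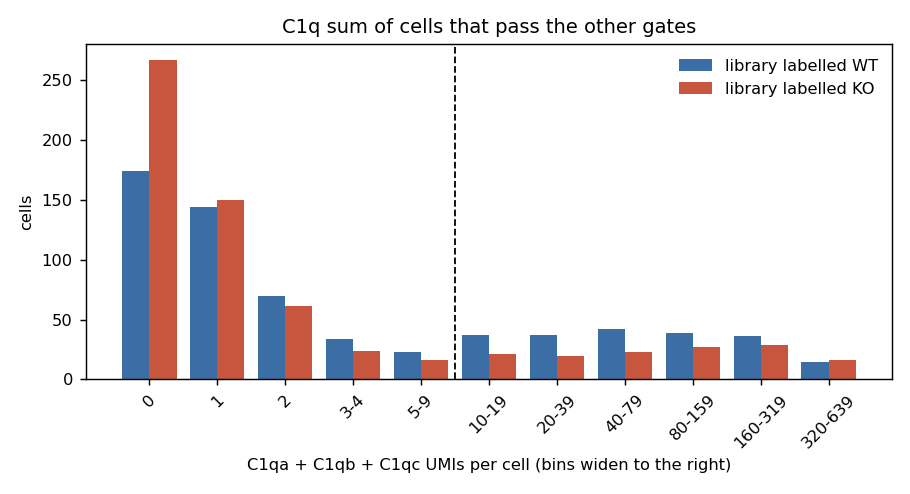
Cells that pass every gate other than the C1q limit (y axis, cells) by their summed *C1qa*, *C1qb* and *C1qc* UMIs (x axis, bins that widen to the right), with bars for the library labelled WT (blue) and labelled KO (red) and a dashed line at the limit of 10 UMIs. Just left of the line the bin of 5 to 9 UMIs holds 23 and 16 cells, and just right of it the bin of 10 to 19 UMIs holds 37 and 21.

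Just inside the limit, cells with 10 to 14 C1q UMIs (18 and 13 cells) had *Mrc1* at 74.4 and 110.4 CPM (UMIs of a gene per 1000000 UMIs of the class and library) in the libraries labelled WT and KO. Just outside, cells with 5 to 9 UMIs (23 and 16 cells) had *Mrc1* at 25.3 and 21.1 CPM. The other marker genes had no such order in both libraries: *Ccl8* was at 23.3 and 323 CPM just inside and 36.2 and 5.27 CPM just outside, and *Gas6* at 4.65 and 0 CPM inside and 0 and 5.27 CPM outside. *Ly6c2* was at 1214 and 1087 CPM just inside, against 192 and 96.5 CPM in members with 100 or more C1q UMIs (73 and 58 cells), so members near the limit carried more of this monocyte gene than those far above it.

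The members summed to 3012450 UMIs in the library labelled WT and 2086207 in that labelled KO, with medians of 12590 and 14441 UMIs and 2885.5 and 3045 genes per cell and median mitochondrial shares of 1.31% and 1.45%. Over all cells the medians were 9887.5 and 6945.5 UMIs. The 2 libraries shared 13 barcode sequences, and no member carried one of them. *Xist* had 0 UMIs in the members of both libraries, while a UMI of the Y-linked genes *Ddx3y*, *Eif2s3y*, *Kdm5d* or *Uty* was found in 137 of 206 and 93 of 136 members, which goes against female mice as the source of either library.

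*Maoa*, the targeted gene, which encodes a mitochondrial enzyme that breaks down serotonin and other monoamines, was at 1 UMI in the members labelled WT and 3 UMIs in those labelled KO. The log2 ratio of 1.75 had a counting interval of -1.52 to 7.83. At this depth the gene does not check the labels, and the libraries are called by their labels throughout.

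The members held a macrophage profile. All 12 macrophage marker genes (among them *Adgre1*, *Csf1r*, *Cd68*, *Maf*, *Mertk*, *Fcgr1*, *Apoe*, *Cd14*, *Trem2*, *Ms4a7* and *Cx3cr1*) were found in both libraries. Without *Csf1r*, which the rule used, the other 11 summed to 4861 and 6125 CPM, against 198 and 225 CPM in T cells. Genes found in at least 25% of members of both libraries were ranked by their ratio to all other cells of the same library, taking the lower library. Beside the C1q chains the largest ratios among them were those of *Apoe* (log2 2.34 and 2.36), which encodes a lipid carrier, *Ccl12* (2.34 and 2.79), *Ms4a7* (2.29 and 2.85), *Il18bp* (2.11 and 2.05), which encodes a binder of IL-18, *Snx24* (2.03 and 2.11), *Ccl7* (2.03 and 2.45) and the Fc receptor gene *Fcgr4* (1.99 and 2.20). Since the cells were chosen on genes that go with these, the ratios describe the members and carry no test.

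Of the 6 genes that mark these cells, the C1q chains were in nearly every member and *Mrc1*, *Ccl8* and *Gas6* in fewer. To compare shares at 1 depth, cells were thinned at random to 8200 UMIs apiece, and 18 of 206 and 15 of 136 members were too shallow to keep. *Mrc1* was then found in 34.6% of members labelled WT (interval 27.8 to 41.8) and in 54.5% of those labelled KO (45.2 to 63.6), against 1.46% and 2.87% of T cells, which should lack it. *Ccl8* was found in 27.7% and 39.7% of members and in 12.8% and 8.96% of T cells, and *Gas6* in 10.6% and 25.6% of members and 0.366% and 0.358% of T cells. Without thinning the shares were 41.7% and 64.0% for *Mrc1*, 34.0% and 42.6% for *Ccl8* and 12.6% and 27.9% for *Gas6*. T cells were shallower, with medians of 9526 and 4933 UMIs before thinning, and their shares rest on the deepest 547 of 1011 and 279 of 1111 cells.

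The *Ccl8* transcripts sat in few cells. The 21 members labelled WT with the most *Ccl8* held 91.0% of its UMIs and the 14 such members labelled KO 83.1%, and the highest cells had 288 and 737 UMIs while the median member had 0. The median *Mrc1* count was 0 in the members labelled WT (upper quartile 2, highest 18) and 2 in those labelled KO (upper quartile 5, highest 25). At this depth a cell with 0 UMIs of *Mrc1*, *Ccl8* or *Gas6* is not shown to lack the transcript. Of 23 resident-like tissue macrophage genes in the table, 16 reached 100 UMIs over both libraries. Among the others *Lyve1* had 0 UMIs in both libraries, *Cd163* 4 and 4 and *Timd4* 3 and 0.

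Genes of other cells were present too. The 12 monocyte markers summed to 3312 and 2664 CPM in members, and 93.2% and 84.6% of members had 3 or more of their UMIs. The 6 plasmacytoid dendritic cell markers summed to 799 and 868 CPM, against 409 and 349 CPM in T cells, and most of that was *Bst2* (544 and 644 CPM) and *Irf8* (220.4 and 189 CPM), while *Siglech*, which the rule limits, was at 1.33 and 1.92 CPM and *Ccr9* at 0.332 and 0.479 CPM. Apart from the *Cd3* genes, which the rule used, 6 T cell markers in the table summed to 88.6 and 53.7 CPM in members, against 2573 and 2177 CPM in T cells. The 8 NK cell markers summed to 149 and 68.1 CPM, with *Eomes* at 0 in the library labelled WT. The 9 melanoma markers summed to 57.8 and 40.7 CPM, against 6.42 and 5.95 CPM in T cells, with *Sox10* at 0 in members of both libraries. Of the members, 9.71% and 4.41% had 3 or more melanoma marker UMIs. The 10 neutrophil markers summed to 390 CPM in the members labelled WT and 40.3 CPM in those labelled KO, with the granule genes *Camp*, *Ngp* and *Ltf* at 0 in both libraries. In T cells the neutrophil list showed a gap of the same direction, 224 and 28.8 CPM.

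**Figure D2:**
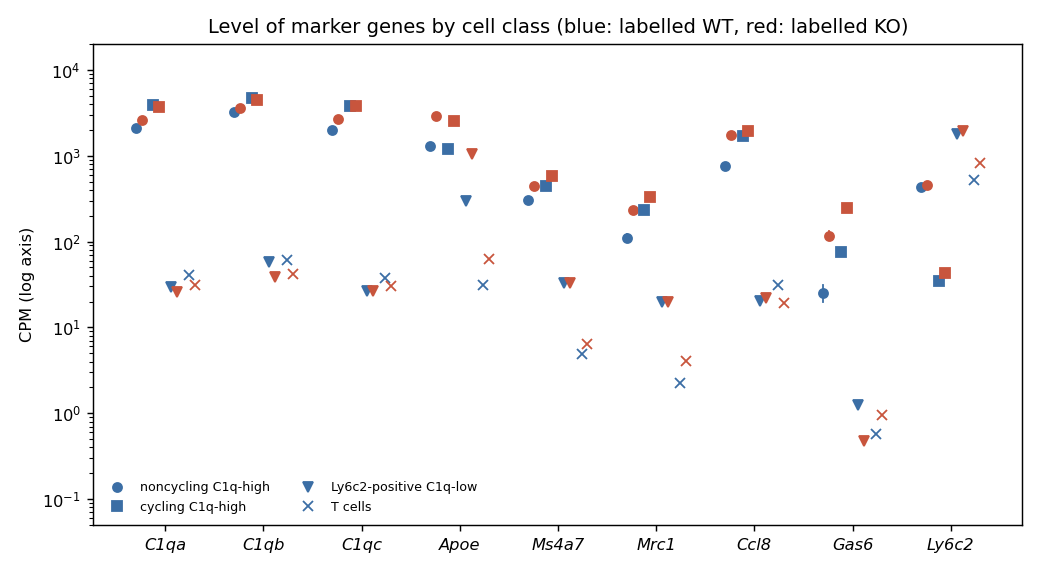
CPM (log axis) of 9 genes in noncycling C1q-high macrophages (circles, with 95% Poisson intervals that are mostly smaller than the symbol) and in 3 other cell classes, for the library labelled WT (blue) and labelled KO (red). *Mrc1*, *Ccl8* and *Gas6* of the members lie between those of the cycling C1q-high cells and of the *Ly6c2*-positive C1q-low monocytes, and *Ly6c2* of the members is above that of the cycling cells.

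The promoters of 3 of these genes are shown because their transcripts define the members (*C1qb*) or go together within them (*Mrc1* and *Ccl8*). *C1qa*, *C1qb* and *C1qc* lie side by side on the minus strand of chromosome 4, at 136895917 to 136898803, 136880129 to 136886187 and 136889804 to 136893065. The bases upstream of the start are from RefSeq (GRCm38.p6), 5′ to 3′ on the strand of the gene. Capitals mark a match to TGCTGA, the half-site that MAF factors bind, or to GAGGAA, the core that the macrophage factor PU.1 binds, or to their reverse complements TCAGCA and TTCCTC.
C1qb, chr4:136886201-136886450, minus strand: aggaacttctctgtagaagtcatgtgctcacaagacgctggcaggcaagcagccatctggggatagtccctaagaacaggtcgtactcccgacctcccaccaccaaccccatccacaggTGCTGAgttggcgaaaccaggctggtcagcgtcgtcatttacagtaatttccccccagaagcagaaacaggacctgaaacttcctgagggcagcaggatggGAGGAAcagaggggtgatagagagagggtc
Ccl8, chr11:82114935-82115184, plus strand: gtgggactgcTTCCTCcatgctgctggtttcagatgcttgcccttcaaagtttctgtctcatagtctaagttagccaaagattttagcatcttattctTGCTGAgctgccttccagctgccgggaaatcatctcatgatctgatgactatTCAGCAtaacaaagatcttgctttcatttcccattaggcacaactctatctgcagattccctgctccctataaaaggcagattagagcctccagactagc
Mrc1, chr2:14229164-14229391, plus strand: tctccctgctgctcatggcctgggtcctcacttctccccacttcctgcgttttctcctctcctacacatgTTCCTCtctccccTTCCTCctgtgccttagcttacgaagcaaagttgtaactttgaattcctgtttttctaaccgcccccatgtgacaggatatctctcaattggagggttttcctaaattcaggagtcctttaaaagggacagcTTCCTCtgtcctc

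The *C1qb* window held 1 match to the MAF half-site and 1 to the PU.1 core, the *Ccl8* window 2 and 1, and the *Mrc1* window 0 and 3. Of 32851 promoter windows of 250 bases, 16.1% held the MAF half-site and 23.3% the PU.1 core on either strand, and the 2 motifs share no overlap in these windows. The *Mrc1* window is 228 bases long, since the annotated gene starts before the end of the RefSeq window. Transcripts of the factors were found in the members, with *Maf* at 191 and 244 CPM and *Spi1*, which encodes PU.1, at 570 and 471 CPM in the libraries labelled WT and KO.

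The first comparison is the share of members among sorted leukocytes. Members were 8.61% (7.52 to 9.81) of the WT-labelled library's cells and 5.17% (4.36 to 6.09) of the KO-labelled library's. Cycling C1q-high macrophages, which differ from members only in the cycle limit, were 1.34% (0.917 to 1.88) and 1.90% (1.41 to 2.50), that is 32 and 50 cells. The share of members was lower in the library labelled KO with separate counting intervals, and the share of their cycling counterparts was higher with overlapping ones. Without cells with 3 or more UMIs of T, NK or B cell markers, an alternative chosen after seeing the data, members were 2.26% and 2.32%, so the order of the shares did not hold under it. It kept 54 and 61 of the members. The intervals also overlapped without cells with 3 or more *S100a8* and *S100a9* UMIs, another such alternative, at 6.27% (5.33 to 7.32) and an unchanged 5.17% (4.36 to 6.09), and with no *Cd3* UMI allowed, at 3.22% (2.55 to 4.01) and 2.32% (1.78 to 2.97). *Ly6c2*-positive C1q-low monocytes were 6.44% and 8.90%. A share says nothing of cell numbers per tumor, and all shares of a library sum to a fixed total.

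The second comparison is of gene levels in members of both libraries, which the study asked about for tumor macrophages with and without *Maoa*. Of 17232 genes, 4608 had at least 100 UMIs over both libraries in members and were compared. A gene is called past the fold where its log2 ratio, labelled KO over labelled WT with 0.5 UMIs added to each side, was 1 or more in size and the Poisson intervals of both levels were separate. By this rule 41 genes (0.89%) were higher in the library labelled KO and 91 (1.97%) lower, and the median log2 ratio over all 4608 genes was 0.04. These percentages are the background against which each list below is read. With 1 library a side they describe these libraries only.

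**Figure D3:**
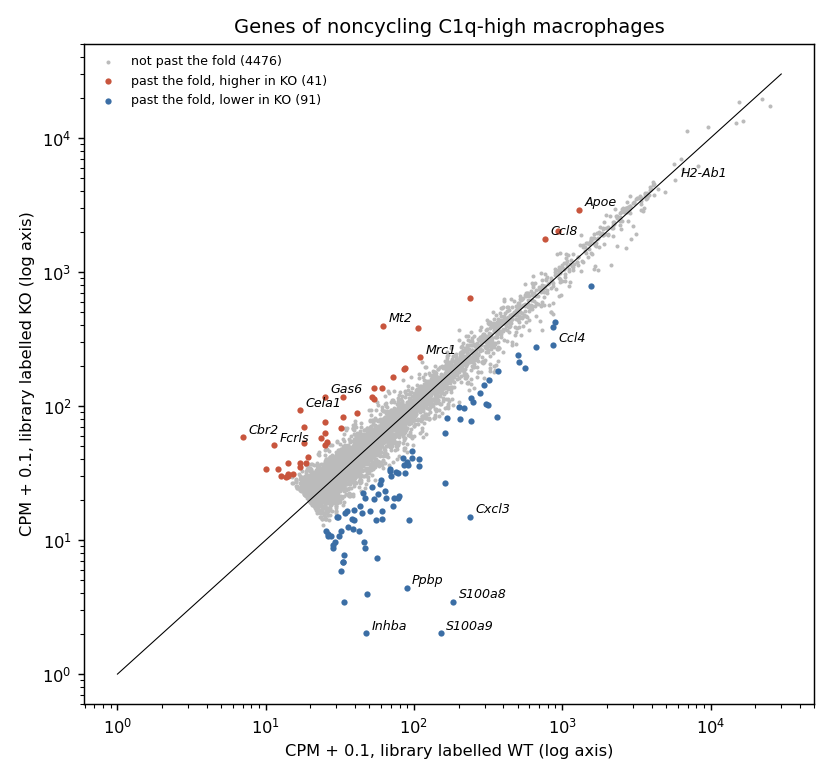
Level of each of 4608 genes in noncycling C1q-high macrophages of the library labelled WT (x axis) and labelled KO (y axis), as CPM plus 0.1 on log axes, with 41 genes past the fold upward in red, 91 downward in blue and the line of equal levels in black. *Apoe*, *Ccl8* and *Mrc1* are among the red points, and *S100a8*, *S100a9*, *Cxcl3*, *Ppbp* and *Inhba* lie farthest below the line.

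Among the marker genes outside the rule, all 3 were past the fold upward. *Mrc1* was at 111 and 231 CPM (intervals 99.0 to 123 and 210.4 to 252), and its log2 ratio was 1.06 (0.86 to 1.27). *Ccl8* was at 765 and 1764 CPM, 1.20 (1.13 to 1.28), and *Gas6* at 24.9 and 117 CPM, 2.23 (1.86 to 2.63). The C1q chains, which the rule used, were at 2114 and 2598 CPM for *C1qa*, 3260.1 and 3576 CPM for *C1qb* and 1973 and 2667 CPM for *C1qc*. A single cell held 20.03% of the *Ccl8* UMIs in the library labelled KO and 12.5% in that labelled WT, and without the highest cell of each library the *Ccl8* ratio was 1.08 (1.001 to 1.17). With no *Cd3* UMI allowed, *Mrc1* was at 0.99 and *Ccl8* at 0.88, and with no cycle gene UMI allowed *Mrc1* was at 0.87, each short of the fold.

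Of the genes fixed as resident-like tissue macrophage genes, 16 of 23 in the table were compared, 11 had a ratio above 0, 6 were past the fold upward and none downward, and the median log2 ratio was 0.57 against 0.04 over all genes. *Cbr2*, which encodes a carbonyl reductase, was at 6.97 and 58.5 CPM (3.04, 2.39 to 3.81), the largest ratio upward of any gene compared. *Wwp1*, a ubiquitin ligase gene, was at 17.9 and 70.0 CPM (1.96), *Sepp1*, which encodes the selenium carrier selenoprotein P, at 239 and 644 CPM (1.43), and the growth factor gene *Igf1* at 61.1 and 137 CPM (1.16). *Gas6* is the fifth and *Ccl24* the sixth. *Folr2*, a folate receptor gene, was at 39.2 and 66.1 CPM (0.76) and *Pf4* at 921 and 1360.4 CPM (0.56), both short of the fold here, and *F13a1* at 154 and 137 CPM (-0.18) had a negative ratio. These lists were chosen with results of these libraries known, so their direction is no independent evidence.

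*Ccl24* rests on few cells. It encodes an eosinophil-attracting chemokine and was at 107 and 382 CPM (1.83, 1.65 to 2.03), but 62.4% of its UMIs in the library labelled KO came from 1 cell with 497 UMIs and 44.4% in that labelled WT from 1 cell with 143. It was found in 5.79% of thinned members labelled KO and 10.6% of those labelled WT, the opposite order to its level, and in 1.79% and 2.01% of the T cells. Without the highest cell of each library the ratio was 1.27 (0.997 to 1.54), and over the alternatives it ran from 1.19 to 6.15, the latter without members with 3 or more lymphocyte marker UMIs. *Saa3*, an acute phase gene, was at 24.9 and 75.7 CPM (1.60), and at 2.78 without members that had 5 or more *Ly6c2* UMIs, an alternative chosen after seeing the data. One cell held 62.0% of its UMIs in the library labelled KO and 33.3% in that labelled WT, and without these cells the ratio was 0.79 (0.23 to 1.37), short of the fold. *Mt2*, a metallothionein gene, was at 61.7 and 395 CPM (2.68) with 42.3% of its UMIs in 1 cell labelled KO, and at 2.04 (1.79 to 2.31) without the highest cells. *Mt2* was found in 20.2% and 29.8% of thinned members and in 21.9% and 30.5% of T cells. Over the alternatives *Saa3* ran from 0.56 to 3.94 and *Mt2* from 1.60 to 3.44.

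For *Cela1*, *Fcrls*, *Stmn1* and *Erdr1*, also among the largest ratios upward, no single cell held more than 17.6% of the UMIs of a library. *Cela1*, an elastase gene, was at 16.9 and 92.99 CPM (2.45, 2.01 to 2.93) and *Fcrls*, an Fc receptor-like gene of microglia and other macrophages, at 11.3 and 50.8 CPM (2.16, 1.60 to 2.77), the latter at 0.80 without members with 3 or more lymphocyte marker UMIs. *Stmn1*, which encodes a microtubule regulator that dividing cells express, was at 32.9 and 116 CPM (1.82, 1.48 to 2.17). *Stmn1* was also at 503 and 646 CPM in the cycling counterparts and at 439 and 290 CPM in T cells, so its part from leftover cycling cells or free RNA was not tested. *Erdr1* was at 9.96 and 33.6 CPM (1.74) and was higher in the library labelled KO in T cells too (1.19).

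Of 23 lipid-associated macrophage genes compared, 2 were past the fold upward and 1 downward, with a median of -0.18. *Apoe* was at 1303 and 2911 CPM (1.16, 1.10 to 1.22) and was found in 64.4% and 81.8% of thinned members, against 18.3% and 22.9% of T cells. One cell labelled WT held 23.9% of the *Apoe* UMIs there. Without the highest cell of each library the *Apoe* ratio was 1.47 (1.40 to 1.53). *Pltp*, which encodes a phospholipid transfer protein, was at 52.1 and 117 CPM (1.17, 0.88 to 1.47). *Trem2*, a lipid-sensing receptor gene, was at 202 and 368 CPM (0.86), short of the fold. *Nr1h3*, which encodes the sterol-sensing nuclear receptor LXR alpha, was lower at 53.4 and 20.1 CPM (-1.40, -1.93 to -0.91). *Spp1*, which encodes osteopontin, was at 2139 and 1125 CPM (-0.93), and the lipid droplet gene *Plin2* at 811 and 564 CPM (-0.52). *Apoe* was also past the fold in the same direction in the other classes described here, at 1.10 in cycling C1q-high cells, 1.83 in *Ly6c2*-positive monocytes and 1.02 in T cells. In members it fell short of the fold in thinned cells (0.87), without cells with a melanoma UMI (0.88) and with no cycle gene UMI allowed (0.96).

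The monocyte-attracting CC chemokines were split. Of 9 compared, *Ccl8* and *Ccl24* were past the fold upward and *Ccl4* downward (864 and 284 CPM, -1.60, -1.74 to -1.48), and the median was -0.70. Without members that had 5 or more *Ly6c2* UMIs, *Ccl4* was at -0.75, short of the fold. Every other member of the list was lower in the library labelled KO but short of the fold. *Ccl2* was at 3142 and 1937 CPM (-0.70, -0.75 to -0.64), *Ccl7* at 2702 and 1522 CPM (-0.83), *Ccl6* at 2919 and 1752 CPM (-0.74), *Ccl9* at 1634 and 1044 CPM (-0.65), *Ccl3* at 351 and 184 CPM (-0.93) and *Ccl12* at 1348 and 1017 CPM (-0.41). With no cycle gene UMI allowed, *Ccl2* was at -1.06 and *Ccl7* at -1.35, and at 1 common mix of *Mrc1* cells *Ccl7* was at -1.002 (-0.91 in thinned cells without that step). *Ccl2* was found in 89.9% and 86.0% of thinned members and 29.1% and 16.8% of T cells, and *Ccl7* in 73.4% and 71.1% of members and 30.5% and 13.3% of T cells, so in T cells too the shares were lower in the library labelled KO. Of 8 lymphocyte-attracting and CXC chemokines compared, 3 were past the fold downward and none upward, with a median of -0.57. These were *Cxcl3* at 240 and 14.9 CPM (-3.99, -4.58 to -3.49), *Ppbp* at 89.0 and 4.31 CPM (-4.29) and the interferon-induced *Cxcl10* at 321 and 156 CPM (-1.04, -1.23 to -0.86). *Pf4*, at 0.56, was the only one of the 8 with a ratio above 0.

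*Cxcl3* and *Ppbp* were held by few members. The 21 members labelled WT with the most *Cxcl3* had 95.3% of its UMIs there, and *Cxcl3* was found in 18.6% and 4.13% of thinned members, against 5.12% and 0.717% of T cells, a gap of the same direction. One cell held 58.6% of the *Ppbp* UMIs in the library labelled WT. Without the highest cell of each library the ratios were -4.71 for *Cxcl3* and -4.47 for *Ppbp*. With no *Cd3* UMI allowed *Ppbp* was at -0.89, short of the fold, and without members with 3 or more lymphocyte marker UMIs *Cxcl3* was at -2.04.

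Genes of the extracellular matrix and its proteases had the lowest median of any list with at least 5 genes compared. Of 15 compared, 6 were past the fold downward and 2 upward, and the median was -0.80. Without members with 3 or more lymphocyte marker UMIs it was -0.40. The median of the monocyte-attracting CC chemokines was -0.63 or lower in every alternative, so the matrix genes were not lowest there. The macrophage elastase gene *Mmp12* was at 661 and 275 CPM (-1.27, -1.40 to -1.13), the collagenase gene *Mmp13* at 107 and 40.3 CPM (-1.41), *Mmp19* at 32.9 and 6.71 CPM (-2.25), the matricellular gene *Thbs1* at 251 and 106 CPM (-1.24, -1.46 to -1.02), *Ecm1* at 89.0 and 38.3 CPM (-1.21) and the protease inhibitor gene *Timp1* at 34.2 and 15.8 CPM (-1.10). Upward were *Cela1* and *Plau*, which encodes urokinase, at 11.95 and 34.0 CPM (1.5001). The fibronectin gene *Fn1* was at 118 and 194 CPM (0.72), short of the fold.

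Interferon response genes were lower as a list in the library labelled KO. Of 29 compared, 4 were past the fold downward and none upward, the median was -0.41, and 3 of 29 had a ratio above 0 where 2538 of 4608 genes did. The 4 were *Ifi205* at 163 and 62.3 CPM (-1.38, -1.68 to -1.11), *Ifit1* at 96.6 and 40.7 CPM (-1.24, -1.61 to -0.89), *Usp18*, which encodes a brake on interferon signaling, at 76.0 and 32.1 CPM (-1.24) and *Cxcl10*. *Isg15* was at 864 and 487 CPM (-0.83), *Irf7* at 461 and 298 CPM (-0.63) and *Rsad2* at 266 and 165 CPM (-0.68). *Bst2* (0.24), *Iigp1* (0.33) and *Gbp2* (0.03) were the 3 above 0.

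**Figure D4:**
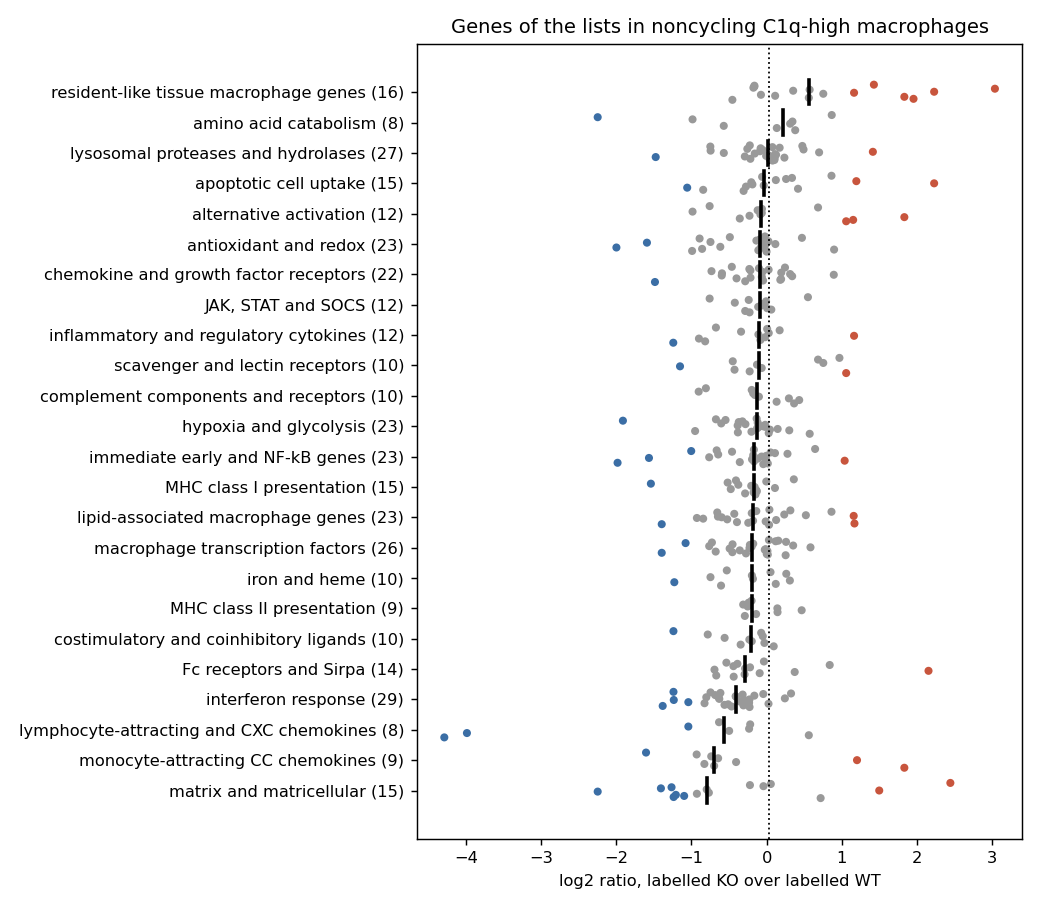
Log2 ratio of the library labelled KO over that labelled WT (x axis) for each compared gene of 24 gene lists (rows, with the number compared), with red and blue points for genes past the fold upward and downward, black bars at list medians and a dotted line at the median of all genes, 0.04. The resident-like genes have the highest median, 0.57, and the matrix genes the lowest, -0.80.

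Antigen presentation differed little. None of 9 MHC class II genes was past the fold, and the median was -0.20. *H2-Aa* was at 4939.5 and 3981 CPM (-0.31, -0.35 to -0.27), *H2-Ab1* at 5738 and 4819 CPM (-0.25), and *Cd74*, which encodes the invariant chain, at 14753 and 12847 CPM (-0.20). *H2-DMa* (0.15) and *H2-DMb1* (0.14), which encode the peptide exchange factor, had positive ratios. In the class I list 1 of 15 genes was past the fold, *H2-Q6*, at 31.2 and 10.5 CPM (-1.54), a gene of a family of near-identical copies whose reads may be split among them. Of 10 costimulatory and coinhibitory ligands compared, *Cd274*, which encodes PD-L1, was past the fold at 85.3 and 36.0 CPM (-1.24, -1.64 to -0.87), and *Cd86* was at 154 and 89.2 CPM (-0.78, -1.04 to -0.54). *Cd69* was at 22.6 and 22.05 CPM (-0.03, -0.61 to 0.53), and 1 cell held 56.5% of its UMIs in the library labelled KO. Without the highest cell of each library *Cd69* was at -0.996 (-1.83 to -0.27), and over the alternatives it ran from -1.87 to 1.06.

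Genes of alternative activation did not move as 1 group. Of 12 compared, *Mrc1*, *Chil3* and *Ccl24* were past the fold upward and none downward, with a median of -0.07. *Chil3*, which encodes the chitinase-like protein Ym1, was at 85.3 and 190 CPM (1.15, 0.92 to 1.39), but its share of thinned members was 23.4% and 25.6%, against 1.83% and 6.45% of T cells, 30.1% of its UMIs in the library labelled KO came from 1 cell, and without the highest cells the ratio was 0.90 (0.64 to 1.17), short of the fold. *Mgl2*, a lectin gene, was at 64.1 and 103 CPM (0.69). *Il4ra* (-0.06) and *Stat6* (-0.06), the receptor and signal transducer of this program, had intervals that held 0.

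Among the cytokines 12 of 26 were compared, *Igf1* was past the fold upward and *Il1rn* downward. *Il1rn*, which encodes the IL-1 receptor antagonist, was at 507 and 214 CPM (-1.24, -1.40 to -1.09), and *Il1b* at 359 and 203 CPM (-0.82). *Tnf* was at 31.5 and 31.6 CPM (0.01, -0.47 to 0.47; -0.39 to 0.52 over the alternatives), and *Il6* had 4 UMIs in the members labelled WT and 0 in those labelled KO, too few to compare. *Tgfb1* was at 363 and 343 CPM (-0.08). Of 22 chemokine and growth factor receptor genes, *Cxcr4* was past the fold at 44.8 and 15.8 CPM (-1.49), while *Ccr2*, the monocyte receptor for CCL2 and CCL7, was at 279 and 319.7 CPM (0.20).

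For uptake of dying cells, 15 of 24 genes were compared, with *Gas6* and the scavenger receptor gene *Stab1* (72.4 and 166 CPM, 1.20) past the fold upward and *Rac1* (501 and 241 CPM, -1.06) downward, and a median of -0.04. The GAS6 receptor gene *Axl* was at 102 and 83.9 CPM (-0.27), and *Mertk* had 47 and 40 UMIs, too few to compare. Of 10 scavenger and lectin receptors compared, *Mrc1* was past the fold upward and *Clec4n*, which encodes Dectin-2, downward (869 and 391 CPM, -1.15, -1.27 to -1.04). Of 10 complement genes compared none was past the fold, with *Cfp*, which encodes properdin, at 319 and 411 CPM (0.37) and *C3* at 37.2 and 21.1 CPM (-0.81).

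In the lysosome, 27 of 27 genes were compared and the median was 0.02. *Lyz1* was past the fold upward at 13.9 and 37.4 CPM (1.42) and shares near-identical sequence with *Lyz2*, which was at 6956 and 11298 CPM (0.70), and *Ctsk* was past it downward at 39.2 and 13.9 CPM (-1.48). The cathepsin genes *Ctsb* (-0.05), *Ctsd* (0.11) and *Ctss* (-0.29) differed little. Of 14 Fc receptor and *Sirpa* genes compared, *Fcrls* was past the fold, *Fcgr1* was at 600.2 and 371 CPM (-0.69) and *Sirpa* at 247 and 320.2 CPM (0.37), with a list median of -0.29. Of 10 iron and heme genes compared, *Alad* was past the fold at 26.2 and 11.0 CPM (-1.23), and *Hmox1*, which encodes heme oxygenase, was at 1738 and 1036 CPM (-0.75).

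Redox and metabolic genes were mostly close to equal. Of 23 antioxidant genes compared, 2 were past the fold downward, the cystine importer gene *Slc7a11* at 71.7 and 17.7 CPM (-1.999, -2.56 to -1.51) and the glutathione reductase gene *Gsr* at 108 and 35.5 CPM (-1.59), with a median of -0.08. Of 23 hypoxia and glycolysis genes, *Egln3*, an oxygen-sensing hydroxylase gene, was past the fold at 78.3 and 20.6 CPM (-1.91), *Hilpda* was at 348 and 180 CPM (-0.95), and the glycolytic genes *Gapdh* (0.15), *Pkm* (-0.12) and *Ldha* (-0.11) were near 0. In amino acid catabolism, *Nos2*, which encodes the inducible nitric oxide synthase, was at 32.9 and 6.71 CPM (-2.25) and was the only one of 8 past the fold, with a median of 0.22. Only 3 of 15 monoamine genes in the table reached 100 UMIs, with *Aldh2* at 0.35, and none was past the fold.

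Of the macrophage transcription factors, 26 were compared, *Id2* (888 and 420.4 CPM, -1.08, -1.19 to -0.97) and *Nr1h3* were past the fold downward and none upward, with a median of -0.19. *Hif1a* was at 96.3 and 58.0 CPM (-0.73), and *Spi1* had a ratio of -0.27. None of 12 JAK, STAT and SOCS genes compared was past the fold (median -0.09). Of 23 immediate early and NF-kB genes, *Fosb* (24.9 and 51.3 CPM, 1.04) was past the fold upward and *Jund* (307 and 104 CPM, -1.57), *Dusp2* (55.8 and 13.9 CPM, -1.98) and *Hspa1b* (45.5 and 22.5 CPM, -1.003) downward.

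The largest ratios downward of all genes were those of *S100a9* (151 and 1.92 CPM, -6.13) and *S100a8* (184 and 3.36 CPM, -5.68), which encode the calprotectin chains of neutrophils and monocytes. *S100a8* was found in 43.6% and 2.48% of thinned members and in 33.6% and 2.15% of T cells, and *S100a9* in 31.9% and 1.65% of members and 34.0% and 2.87% of T cells. The *S100a9* shares of members were thus no higher than those of T cells. The *S100a8* share of members labelled WT (interval 36.4 to 51.0) was above that of T cells (29.7 to 37.8) with overlapping intervals. The part of free RNA was not tested. One member labelled WT held 39.7% of the *S100a8* UMIs. *Inhba*, which encodes an activin chain, was at 47.5 and 1.92 CPM (-4.46), *Spic*, a transcription factor gene of red pulp macrophages, at 56.1 and 7.19 CPM (-2.92, -3.83 to -2.20), and the protease inhibitor gene *Slpi* at 162 and 26.4 CPM (-2.61), or -1.01 without members with 3 or more lymphocyte marker UMIs. *Snx20* (92.0 and 13.9 CPM, -2.70), *Gm5900* (-3.56) and *Gm10093* (-3.24) were lower in T cells as well, at -2.53, -4.40 and -4.12.

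Whether the genes past the fold in members also differed in other cells was read class by class, and the classes share no cell but share both libraries. Of the 41 genes higher in members labelled KO, 25 were compared in cycling C1q-high macrophages and 12 were past the fold the same way, 16 and 5 in *Ly6c2*-positive C1q-low monocytes and 24 and 5 in T cells. Over all genes compared both in members and in the class, 23 of 2472 (0.93%), 17 of 3660 (0.464%) and 40 of 4371 (0.915%) were past the fold upward in these classes. Of the 91 lower genes, 22 were compared and 15 past the fold in the cycling counterparts, 62 and 29 in *Ly6c2*-positive monocytes and 73 and 26 in T cells, where over all genes compared in both it was 42 (1.7%), 71 (1.94%) and 55 (1.26%). *Cbr2* was at 14.9 and 169 CPM (3.44) and *Gas6* at 75.9 and 245 CPM (1.68) in the cycling counterparts, but *Cbr2* was at most at 3.78 CPM in the *Ly6c2*-positive C1q-low monocytes. *Mrc1* was at 230.3 and 334 CPM (0.53) in the cycling counterparts, short of the fold, and at 19.9 and 19.9 CPM in *Ly6c2*-positive monocytes.

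The members varied among themselves along *Mrc1*. In thinned members, 2838 genes were compared between cells with and without a *Mrc1* UMI, and 22 (0.775%) were past the fold upward and 23 (0.81%) downward in both libraries. *Gas6* was at 73.2 against 1.98 CPM in the library labelled WT and 157 against 22.2 CPM in that labelled KO, and *Ccl8* at 1683 against 102 CPM and 2239 against 390 CPM. *Igf1* (log2 3.27 and 2.53), *Folr2* (3.24 and 1.69), *Hpgds* (2.47 and 2.68), which encodes prostaglandin D synthase, *Pf4* (1.70 and 2.16) and the tetraspanin gene *Cd81* (1.58 and 1.71) were higher as well. Of 14 resident-like genes compared 5 were higher in both libraries and 1 lower. Lower were the guanylate-binding protein gene *Gbp2* (129 against 414 CPM and 150 against 601 CPM), *Ly6i* (-1.80 and -2.14), *Upp1* (-2.61 and -1.50), *Clec4e* (-1.39 and -1.45) and *Cnn3* (-2.09 and -2.20), and 4 of 26 interferon response genes were lower and none higher. None of 8 MHC class II genes was past the fold in both libraries, and *H2-Ab1* was at 4248 against 6954 CPM (-0.71) and 3577 against 7239 CPM (-1.02).

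**Figure D5:**
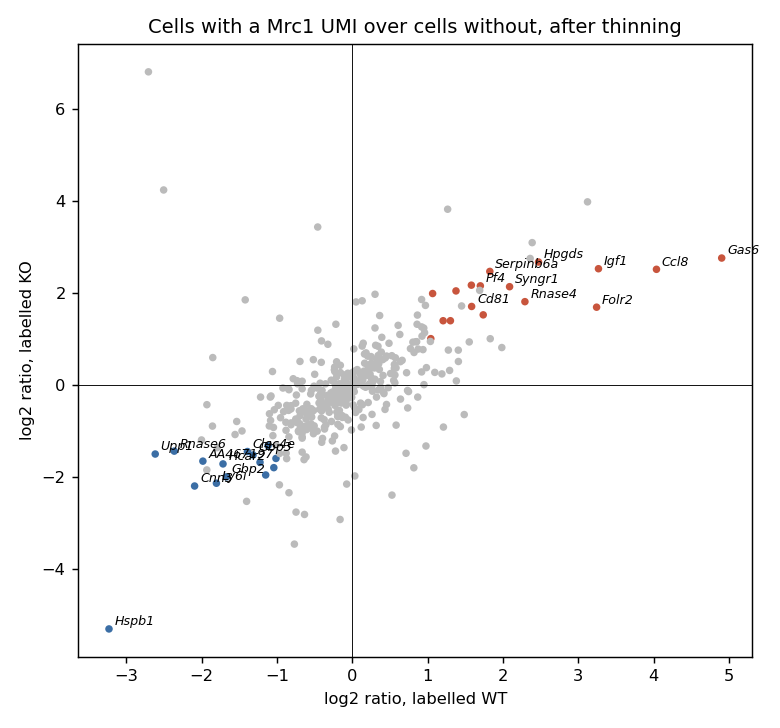
Log2 ratio of thinned members with a *Mrc1* UMI over those without, in the library labelled WT (x axis) and labelled KO (y axis), for the named and listed genes that were compared, with red and blue points for genes past the fold upward and downward in both libraries. *Gas6*, *Ccl8*, *Igf1* and *Folr2* lie at upper right and *Hspb1* at lower left.

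Since more members labelled KO had *Mrc1*, the ratios between libraries were read again within each kind of cell. Among cells with *Mrc1*, *Ccl8* had a log2 ratio of 0.41 (0.29 to 0.54) between libraries and *Apoe* 0.41 (0.31 to 0.51), and among cells without it 1.93 and 1.03. *Gas6* was at 1.09 (0.54 to 1.69) and 3.23 (1.25 to 6.71), and *Sepp1* at 1.28 (1.04 to 1.53) and 0.61 (0.22 to 0.99). *Ccl2* was at -0.91 in cells with *Mrc1* and -0.70 in cells without, *Ccl4* at -1.99 and -1.54 and *Mmp12* at -1.002 and -1.25. Over all thinned members the ratio was 1.11 for *Ccl8*, 1.84 for *Gas6*, 0.87 for *Apoe* and 2.51 for *Cbr2*, and at 1 common mix of thinned cells with and without *Mrc1* it was 0.60, 1.29, 0.64 and 1.93. All 4 kept their direction. From thinned cells to the common mix *Ccl8* fell short of the fold, as did *Wwp1* (1.30 to 0.98) and *Igf1* (1.36 to 0.87), while *Apoe* was short of it in thinned cells already. *Pf4* went from 0.43 to 0.07 and the median of the resident-like genes from 0.26 to 0.21. The larger step of that median, from 0.57, came with the thinning, under which fewer genes reach 100 UMIs. Other alternatives moved *Pf4* the other way, to 1.56 with no *Cd3* UMI allowed and to 1.15 without members with 3 or more *S100a8* and *S100a9* UMIs, and without members with 3 or more lymphocyte marker UMIs *Apoe* was at 1.88 and *Igf1* at 1.997.

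A second axis was *Ly6c2*, found in 62.8% (55.4 to 69.7) and 53.7% (44.4 to 62.8) of thinned members. T cells are no background for it, since they express it themselves. Cells with it had 20 genes (0.705%) higher and 16 (0.564%) lower in both libraries. Higher were the monocyte genes *Hp* (2.62 and 3.06), *Ifitm6* (1.61 and 2.08), *Chil3* (1.45 and 3.68) and *Ms4a4c* (1.31 and 1.55), and lower *Igf1* (-2.03 and -2.79), *Pmp22* (-2.04 and -2.18), *Gas6* (-1.83 and -1.39), *Cd81* (-1.63 and -1.21), *Gpnmb* (-1.21 and -1.37) and *Cd63* (-1.25 and -1.21). *Chil3* was at 135 and 460 CPM in cells with *Ly6c2* (1.76, 1.45 to 2.08) and at 48.8 and 34.8 CPM in those without (-0.47, -1.47 to 0.45). *Ccl12* was at 1753 and 467 CPM in cells with *Ly6c2* (-1.91, -2.11 to -1.71). In those without, *Ccl12* was at 702 and 1481 CPM, the opposite order. Of 21 lipid-associated genes compared 4 were lower in cells with *Ly6c2* and none higher.

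Against the most similar cells, members differed in the same way in both libraries for a limited set of genes. Compared with the cycling counterparts, 106 of 5655 genes (1.87%) were higher and 145 (2.56%) lower. The lower ones were led by the division genes *Hist1h2ap*, *Prc1*, *Mki67*, *Cenpf* and *Cdc20*, as the gate sets them apart. Higher in members were *Ly6c2* (429 and 450 CPM against 34.9 and 43.2 CPM), *Plac8*, a monocyte gene (1670.1 and 1103 CPM against 92.1 and 120.3 CPM), *Gm9733*, *Dmkn* and *Saa3*. *Ccl8* and *Mrc1* were not past the fold in both libraries here.

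Compared with *Ly6c2*-positive C1q-low monocytes, 163 of 6080 genes (2.68%) were higher and 140 (2.3%) lower. The C1q chains led the higher genes, as the gates set them apart. After them came *Igf1* (61.1 and 137 CPM against 1.24 and 2.36 CPM) and *Fcrls* (11.3 and 50.8 CPM against 0 and 0.473 CPM). *Lrg1*, *Hp* (41.8 and 36.4 CPM against 658 and 578 CPM), *Serpinb10*, *Ifitm6* and *Mcemp1* led the lower ones.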

How the data were processed

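The members and lists were chosen with earlier results of these data known. The authors sequenced both libraries, counted UMIs with Cell Ranger against mm10 (per the labels), aggregated the libraries, removed cells with few UMIs or genes or a high mitochondrial share, and normalised with Seurat. The deposited table holds natural log values for 17232 genes and 5022 cells, each the log of 1 plus the UMIs after scaling a cell to 10000. Here the exponential minus 1 was divided by the smallest nonzero value of each cell, and 100% of nonzero values came out whole (tolerance 0.01). Libraries were told apart by barcode suffix (1 for WT, 2 for KO). Aggregation can even out depth between libraries by discarding reads, so totals are not sequencing depth. UMIs were summed over cells of a class and library and divided by all their UMIs (CPM). The exact Poisson intervals of levels, the exact conditional intervals of log2 ratios with 0.5 UMIs added and Clopper-Pearson intervals of shares are at 95%. The ratio intervals and the calls past the fold were checked on simulated Poisson counts, which hold no spread between cells. Intervals of levels and of shares were not checked on their own. A count of 0 allows up to 3 counts. Compared classes passed the same *Csf1r*, *Cd3*, *Cd209a* and *Siglech* gates. Cycling counterparts had 10 or more C1q UMIs and 3 or more cycle gene UMIs and *Ly6c2*-positive C1q-low monocytes under 10 C1q UMIs, 5 or more *Ly6c2* and under 3 UMIs of a gene that, like some other results, is not reported here. T cells had 3 or more *Cd3* UMIs and none of *Csf1r* and *Siglech*. Thinning used the 10th percentile of members' UMIs. Named genes were the markers, the genes the study names for macrophages, examples from 25 lists (highest level and largest ratios), the 10 largest ratios each way, and the leading genes against other cells and classes. The study's Wilcoxon test over cells was not used, since cells are not replicates. Sequences are from RefSeq (GRCm38.p6) and positions from GENCODE (GRCm38), matched by symbol. Alternatives covered the C1q, *Csf1r*, *Cd3* and cycle limits, depth, cells with melanoma UMIs, scaling, weighting, thinning, the minimum of 100 UMIs, the UMIs added, the fold and the mix of cells. The *Cd209a* and *Siglech* limits were not varied. Python 3.11.15, numpy 2.4.6, scipy 1.17.1, pandas 2.3.3 and matplotlib 3.10.9 were used.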

Additional observations from a re-analysis of the deposited data

Results flagged for a closer look

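A gene was singled out where it was past the fold one way in members and the opposite way in another class of the same libraries, and these differences between classes were not tested. *Saa3* was at 1.60 in members (75 and 158 UMIs) and at -3.28 in *Ly6c2*-positive monocytes (409 and 55 UMIs). One cell labelled KO held 98 of the 158 UMIs. *Pttg1*, which encodes securin, was at 1.28 in members (71 and 120 UMIs), -1.63 in the cycling counterparts and -1.30 in T cells.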

How the results depend on the processing

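Members were 8.61% and 5.17% of the libraries labelled WT and KO. For WT the share was 7.07% with 20 C1q UMIs, 7.19% with 2 *Csf1r* UMIs, 3.22% with no *Cd3* UMI, 6.06% with no cycle UMI, 6.31% without cells with a melanoma UMI, and, in alternatives chosen after seeing the data, 5.89% without cells with 5 *Ly6c2* UMIs, 2.26% without cells with 3 lymphocyte marker UMIs and 6.27% without cells with 3 *S100a8* and *S100a9* UMIs. For KO it was 2.32% with no *Cd3* UMI, 3.76% with no cycle UMI, 3.95% without melanoma UMIs, 3.69% without *Ly6c2* cells, 2.32% without lymphocyte UMIs and unchanged without *S100a8* and *S100a9* cells. Genes higher in KO (41) were 21 with no *Cd3* UMI, 24 without lymphocyte UMIs, 25 in thinned cells, 86 with a minimum of 50 UMIs, 10 with a minimum of 500 and 179 at a log2 fold of 0.5. Genes lower (91) were 45 without lymphocyte UMIs, 26 with a minimum of 500 and 265 at a fold of 0.5. Genes higher than in cycling counterparts (106) were 64 without *Ly6c2* cells. Other alternatives kept these counts within 1.5 times. Fewer cells, fewer genes or a lower fold are what most of these settings set. The direction turned for *C1qb* at 1 mix of thinned *Mrc1* cells (-0.042), and *Cd69* and *Tnf*, near 0, took either sign. *Mrc1*, *Ccl8*, *Apoe*, *Igf1*, *Wwp1*, *Fcrls*, *Chil3*, *Saa3*, *Ppbp* and *Ccl4* were short of the fold in at least 1 alternative and *Ccl2*, *Ccl7*, *Cd69* and *Pf4* at or over it in at least 1, and the cause was not tested. No paired analysis was possible because each genotype had 1 library. Without replicates no depth can show a genotype effect.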
